A study of Mus musculus with 8 samples.

Results

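Gluconeogenesis is the synthesis of glucose from lactate, amino acids and glycerol, and the liver carries most of it during food withdrawal. The 10 genes described here are 5 gluconeogenic enzymes and transporters (Pck1, G6pc, Fbp1, Pcx and Slc37a4), the transcription factors and coactivator that act on them (Ppargc1a, Foxo1, Foxo3 and Klf15) and Igfbp1, a widely used FoxO1 target. They were chosen by gene symbol from the 24062 gene entries of 8 count tables. All 10 were found, and all 10 passed the filter on low counts, among 13767 genes tested.

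The tables come from livers of lean wild-type C57BL/6 mice taken 1 week after a dose of 0.1 OD of adenovirus, following 6 h of fasting. At 3 months of age, mice carried lacZ1, a control virus, or a short hairpin virus against Dnajb9 (shDnajb9), an endoplasmic reticulum co-chaperone. At 4 months of age, they carried lacZ2, the other control, or a short hairpin virus against Rictor (shRictor), the subunit that defines mTOR complex 2. Each of these 4 groups has 2 libraries of ribosomal RNA-depleted total RNA. The labels do not tell if replicate libraries stem from different animals, nor what the lacZ viruses encode, so p-values measure the spread between these samples, which may be technical. By its title, the study asks how mTOR complex 2 ties nutrient sensing to metabolism through a chaperone.

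In the textbook pathway, insulin activates AKT, which mTOR complex 2 phosphorylates, and AKT phosphorylates FoxO factors so that they leave the nucleus. When insulin is low, nuclear FoxO1 and the coactivator PGC-1alpha (Ppargc1a) raise the transcription of Pck1, G6pc and Igfbp1, and glucagon acts on several of the same promoters through cAMP response elements. Klf15 is a factor induced by fasting and glucocorticoids that favours amino acid breakdown and gluconeogenesis.

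RefSeq promoters (build GRCm38.p6) were matched for all 10 genes, at 13 start sites, and the 250 bases before each start were read for 4 motifs on both strands. Of FoxO motifs, the form GTAAACA occurred in 0 of the 10 genes, against 3.17% of 32851 promoters of this length. Other sequences that FoxO factors may bind are not covered by this form. The core of the insulin response sequence, CAAAACA, occurred in G6pc and Igfbp1, against 5.56% of promoters. The core of the cAMP response element, TGACGT, occurred in Pck1, Slc37a4 and Ppargc1a, against 6.47%. The TATA box, TATAAA, occurred in G6pc and, only before the last of its starts, in Slc37a4, against 12.4%. A gene counts here if any of its starts has the motif, whereas each percentage is over single promoters. Within each window the matches did not overlap each other. In Slc37a4 the cAMP core lies within the GENCODE gene model, so its sequence is not shown. The 4 sequences below hold an insulin or cAMP core outside the gene model, in capitals on whichever strand it lies. They run 5′ to 3′ along the gene and stop where the GENCODE gene model begins:
G6pc, chr11:101367466-101367560, plus strand: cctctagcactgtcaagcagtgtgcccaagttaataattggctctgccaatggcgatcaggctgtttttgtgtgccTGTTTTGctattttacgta
Igfbp1, chr11:7197537-7197781, plus strand: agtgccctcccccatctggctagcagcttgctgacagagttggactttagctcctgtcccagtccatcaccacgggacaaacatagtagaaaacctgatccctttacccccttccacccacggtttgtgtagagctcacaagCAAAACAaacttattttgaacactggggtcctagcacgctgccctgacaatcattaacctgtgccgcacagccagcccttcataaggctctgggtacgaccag
Pck1, chr2:173152823-173153047, plus strand: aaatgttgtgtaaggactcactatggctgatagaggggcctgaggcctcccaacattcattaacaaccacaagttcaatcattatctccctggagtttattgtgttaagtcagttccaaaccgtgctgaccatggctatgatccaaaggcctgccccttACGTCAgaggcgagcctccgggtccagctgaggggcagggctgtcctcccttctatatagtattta
Ppargc1a, chr5:51567727-51567975, minus strand: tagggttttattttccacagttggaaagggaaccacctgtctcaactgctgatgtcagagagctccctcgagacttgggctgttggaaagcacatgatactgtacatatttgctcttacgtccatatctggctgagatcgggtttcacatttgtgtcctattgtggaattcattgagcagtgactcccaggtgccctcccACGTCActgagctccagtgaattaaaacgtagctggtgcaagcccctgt

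The match in G6pc lies 174 to 168 bases before the RefSeq start and that in Igfbp1 108 to 102 bases before it. The G6pc sequence above leaves out the last 155 bases before its RefSeq start. The TATA box of G6pc lies in that part, inside the GENCODE gene model. In Pck1 the cAMP core lies 91 to 86 bases and in Ppargc1a 50 to 45 bases before the start. Slc37a4 has 3 starts, and the same cAMP core lies 61 to 56 bases before the first and 214 to 209 bases before the second. A match describes the letters of this window, and a missing one says only that the letters are not there.

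Counts assigned to genes ran from 6426164 to 11383532 per library. The TMM scaling factors were 1.07 to 1.28 in the 4 lacZ libraries and 0.743 to 0.918 in the 4 hairpin libraries, so that scaling moves hairpin against control. With total count only, the median over all genes, in log2 fold change, goes from -0.05 to -0.464 for shDnajb9 and from -0.02 to -0.424 for shRictor, and the calls split into 610 higher and 3354 lower and into 436 higher and 2810 lower, against 1597 and 1728 and against 1006 and 1502 with TMM. Of the 10 genes, 4 then rose in shDnajb9 and 6 in shRictor. The share of reads without a unique alignment was 22.9% to 24.9% in the lacZ libraries, 41.3% and 42.0% in shDnajb9 and 32.7% and 26.7% in shRictor. Rpph1, the RNA of ribonuclease P, took 4.70% of gene counts in shDnajb9 replicate 1 and 4.26% in lacZ2 replicate 1, against 1.11% to 2.03% in the other libraries, so these 2 libraries stand apart. Dnajb9 was at 30.6 and 38.0 CPM (counts per 1000000 counts after TMM scaling) in lacZ1 and at 22.0 and 20.3 CPM with shDnajb9 (log2 fold change -0.70, adjusted p = 0.056, and -1.12, adjusted p = 0.0111, with total count only). Rictor read 52.3 and 65.2 CPM with lacZ2, against 40.1 and 42.0 CPM with shRictor (log2 fold change -0.52, adjusted p = 0.231). Dnajb9 also passed with TMM scaling when no gene was filtered out (-0.71, adjusted p = 0.0484). Under the other hairpin, Rictor read 33.3 and 63.4 CPM with shDnajb9, against 65.4 and 68.8 CPM with lacZ1. The value of 33.3 CPM was the lowest of any library. Dnajb9 read 61.1 and 43.8 CPM with shRictor, against 40.4 and 38.8 CPM with lacZ2. With TMM scaling and the filter on low counts neither target passed in its own comparison, so the groups are named here by the hairpin delivered.

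**Figure D1:**
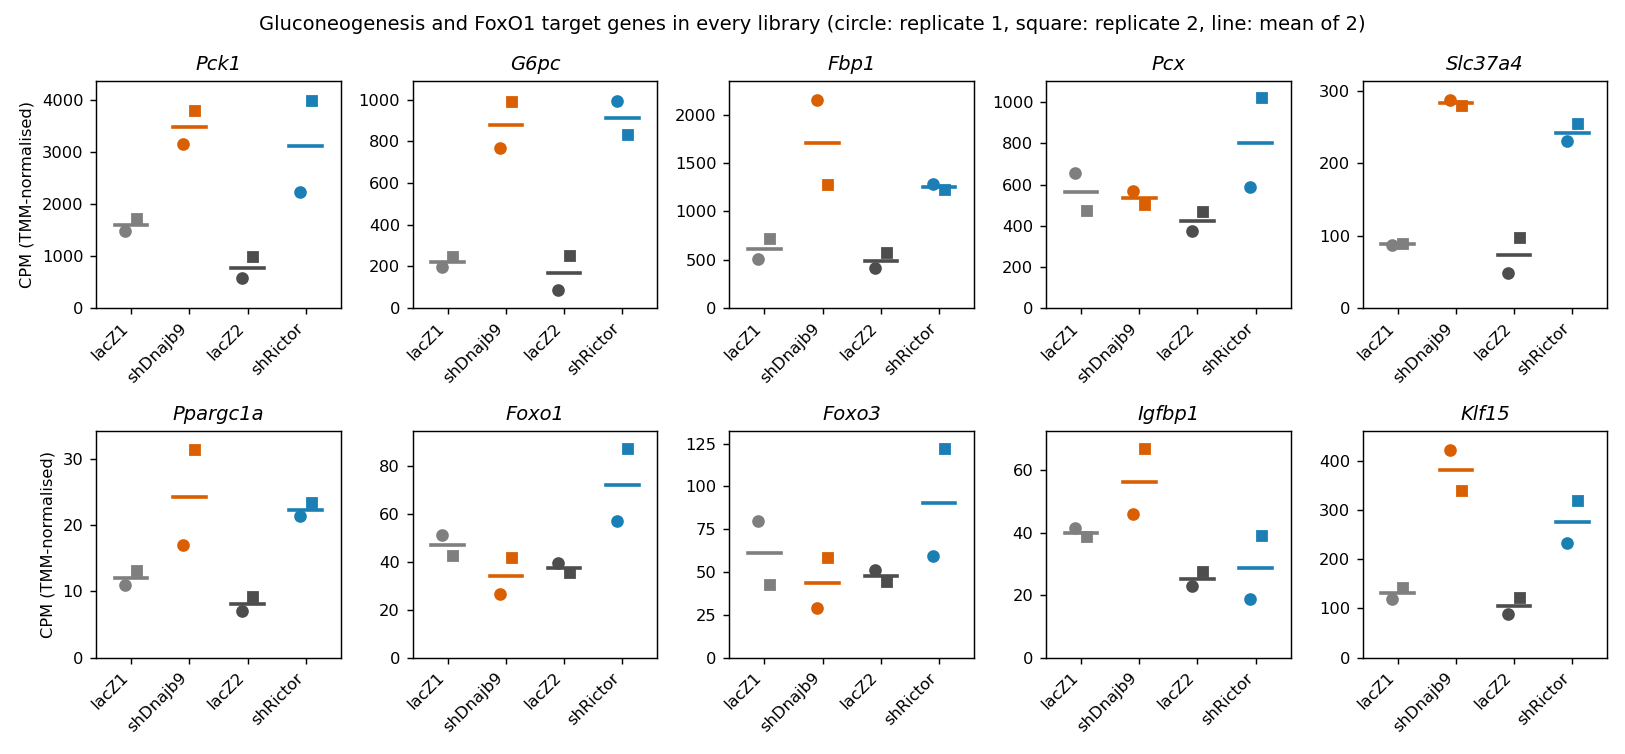
Level of each of the 10 genes in every library, in TMM-normalised CPM on a linear axis that starts at 0, for the 4 groups. Circles are replicate 1, squares replicate 2 and lines the mean of the 2 libraries. Pck1, G6pc, Fbp1, Slc37a4, Ppargc1a and Klf15 lie higher in every hairpin library than in every lacZ library, whereas Igfbp1, Pcx, Foxo1 and Foxo3 do not.

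The comparison of shDnajb9 with lacZ1 asks how the pathway differs after the hairpin against the co-chaperone. G6pc, Slc37a4 and Fbp1, which act in the last steps of glucose output, and the regulators Klf15 and Ppargc1a rose, and were 2.04-fold to 3.98-fold higher. Pck1 and Igfbp1 were higher in both libraries but did not pass, and Pcx, Foxo1 and Foxo3 did not pass either. The test was the quasi-likelihood F test of edgeR, with p-values adjusted by Benjamini-Hochberg over 13767 genes and a call at an adjusted p under 0.05. Of the 10 genes 5 rose and 0 fell, where 24.2% of all genes tested were called and 11.6% rose. The median log2 fold change was 1.07 over the 10 genes and -0.05 over all genes.

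G6pc (ENSMUSG00000078650.2, chromosome 11, 101367561 to 101377903, plus strand), the catalytic subunit of glucose 6-phosphatase, frees glucose in the endoplasmic reticulum. It read 199 and 243 CPM with lacZ1, against 770 and 989 CPM with shDnajb9. The groups did not overlap, and G6pc rose by 1.99 on the log2 scale (SE 0.444, adjusted p = 0.00749, edgeR).
Slc37a4 (ENSMUSG00000032114.9, chromosome 9, 44396852 to 44402968, plus strand) carries glucose 6-phosphate to that enzyme. It read 87.5 and 88.4 CPM with lacZ1, against 287 and 279 CPM with shDnajb9. These replicates lay closest together of the genes that rose, and the rise was 1.69 (SE 0.32, adjusted p = 0.00306).
Fbp1 (ENSMUSG00000069805.10, chromosome 13, 62864753 to 62888282, minus strand), fructose bisphosphatase, read 507 and 715 CPM with lacZ1, against 2153 and 1273 CPM with shDnajb9. The higher value was that of replicate 1, which stood apart, and the rise was 1.49 (SE 0.392, adjusted p = 0.017).

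Klf15 (ENSMUSG00000030087.11, chromosome 6, 90462576 to 90475238, plus strand) went from 120 and 142 CPM to 423 and 338 CPM. Its groups lay well apart, a rise of 1.54 (SE 0.302, adjusted p = 0.00371).
Ppargc1a (ENSMUSG00000029167.13, chromosome 5, 51454250 to 51567726, minus strand) had few reads, 124 and 110 counts in lacZ1 and 81 and 275 in shDnajb9. That is 11.0 and 13.1 CPM against 17.0 and 31.4 CPM, and the rise of 1.03 (SE 0.297, adjusted p = 0.0256) had its higher value in shDnajb9 replicate 2.

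Pck1 (ENSMUSG00000027513.11, chromosome 2, 173153048 to 173159273, plus strand), the cytosolic enzyme that makes phosphoenolpyruvate, read 1483 and 1713 CPM with lacZ1, against 3148 and 3783 CPM with shDnajb9. The groups did not overlap, yet the log2 fold change of 1.12 did not pass (SE 0.438, adjusted p = 0.078, edgeR). It passed with DESeq2 (adjusted p = 0.00619), when no gene was filtered out (adjusted p = 0.0457), fitted to its own 4 libraries (adjusted p = 0.0492), and without lacZ2 replicate 1 or 2 (adjusted p = 0.0461 and 0.0463).
Pcx (ENSMUSG00000024892.17, chromosome 19, 4510472 to 4621752, plus strand), pyruvate carboxylase, feeds oxaloacetate to Pck1. It read 658 and 472 CPM with lacZ1, against 567 and 501 CPM with shDnajb9, so the groups overlapped (-0.08, 95% interval -0.86 to 0.69, adjusted p = 0.886).

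Igfbp1 (ENSMUSG00000020429.7, chromosome 11, 7197782 to 7202546, plus strand), a secreted binding protein of insulin-like growth factors, read 41.4 and 38.5 CPM with lacZ1, against 45.9 and 66.7 CPM with shDnajb9. Both hairpin libraries were above both controls, and the log2 fold change of 0.50 (95% interval -0.18 to 1.18) did not pass (adjusted p = 0.256).
Foxo1 (ENSMUSG00000044167.6, chromosome 3, 52268336 to 52353221, plus strand) read 51.1 and 42.3 CPM with lacZ1, against 26.6 and 41.6 CPM with shDnajb9, a log2 fold change of -0.45 (95% interval -1.05 to 0.16, adjusted p = 0.253).
The antisense gene Gm20402 covers 7.78% of the Foxo1 exon length, and the strand setting of the counting is not given in the sources used here, so reads of these genes cannot be told apart there.
Foxo3 (ENSMUSG00000048756.11, chromosome 10, 42181841 to 42276755, minus strand) read 80.0 and 42.5 CPM with lacZ1, against 28.9 and 58.5 CPM with shDnajb9. Its groups overlapped, with a log2 fold change of -0.48 (95% interval -1.34 to 0.39, adjusted p = 0.394).

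In all, 7 of the 10 were higher in both shDnajb9 libraries than in both lacZ1 libraries, where 32.4% of all genes were, and 1, Foxo1, was lower, where 35.1% were. Fewer of the 10 rose when lacZ1 replicate 1 or lacZ1 replicate 2 was left out, and fewer of all genes tested did as well. The call of Slc37a4 held in all 15 alternatives, whereas those of G6pc (1.83, adjusted p = 0.0964) and Klf15 (1.39, adjusted p = 0.0691) were lost without lacZ1 replicate 1. The call of Fbp1 was lost when lacZ1 replicate 1 (1.23, adjusted p = 0.201) or replicate 2 (1.75, adjusted p = 0.0517) was left out, when shDnajb9 replicate 1 was (1.06, adjusted p = 0.14), and without both libraries that stood apart (adjusted p = 0.0576). The call of Ppargc1a was lost when lacZ1 replicate 1 (0.88, adjusted p = 0.207) or replicate 2 (1.16, adjusted p = 0.0659) was left out, when shDnajb9 replicate 2 was (0.50, adjusted p = 0.232), and with total count only (0.64, adjusted p = 0.174).

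The comparison of shRictor with lacZ2 asks the same after the hairpin against Rictor. Here Pck1 and Foxo1 passed as well, so that 7 of the 10 genes rose and 0 fell, where 18.2% of all genes tested were called and 7.31% rose. G6pc rose most, 5.45-fold, followed by Pck1, 4.02-fold, and Slc37a4, 3.33-fold. Igfbp1, Pcx and Foxo3 did not pass. The median log2 fold change was 1.37 over the 10 genes and -0.02 over all genes.

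G6pc read 86.5 and 248 CPM with lacZ2, against 993 and 831 CPM with shRictor. Both hairpin libraries were above both controls, and the rise was 2.45 (SE 0.452, adjusted p = 0.00276, edgeR).
Slc37a4 did not overlap either, at 48.6 and 96.7 CPM with lacZ2 and at 230 and 255 CPM with shRictor, a rise of 1.74 (SE 0.32, adjusted p = 0.00275).
Fbp1 read 409 and 572 CPM with lacZ2, against 1281 and 1224 CPM with shRictor, a rise of 1.35 (SE 0.391, adjusted p = 0.03).
For these 3 genes lacZ2 replicate 1, which stood apart, was the lowest of all 8 libraries.
Pck1 read 568 and 978 CPM with lacZ2, against 2231 and 3980 CPM with shRictor. All values of the hairpin group were above the controls, and the rise was 2.01 (SE 0.449, adjusted p = 0.00838).
Pcx read 374 and 467 CPM with lacZ2, against 587 and 1018 CPM with shRictor (0.93, 95% interval 0.15 to 1.71). It did not pass with edgeR (adjusted p = 0.0943) and passed with DESeq2 (adjusted p = 0.0167).

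Among the regulators, Klf15 went from 89.6 and 122 CPM to 234 and 318 CPM, a rise of 1.38 (SE 0.301, adjusted p = 0.00709).
Ppargc1a went from 6.98 and 9.22 CPM, 60 and 109 counts, to 21.3 and 23.4 CPM, 181 and 239 counts, a rise of 1.45 (SE 0.302, adjusted p = 0.00547).
Its replicates lay closer together than in shDnajb9.
Foxo1 read 39.5 and 35.0 CPM with lacZ2, against 56.9 and 87.0 CPM with shRictor, a rise of 0.95 (SE 0.278, adjusted p = 0.0316).
Foxo3 read 51.4 and 44.2 CPM with lacZ2, against 59.5 and 122 CPM with shRictor, with a log2 fold change of 0.92 (95% interval 0.06 to 1.79) that did not pass (adjusted p = 0.131, and 0.0076 with no filter).
In Pcx, Foxo1 and Foxo3 alike, shRictor replicate 2 was the highest of all 8 libraries.
Igfbp1 read 22.8 and 27.4 CPM with lacZ2, against 18.6 and 38.7 CPM with shRictor. The controls lay between the hairpin libraries, and the log2 fold change of 0.19 (95% interval -0.50 to 0.88, adjusted p = 0.73) turned to -0.21 with total count only.

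In all, 9 of the 10 were higher in both shRictor libraries than in both lacZ2 libraries, where 28.8% of all genes were, and 0 were lower, where 31.6% were. Fewer of the 10 rose when lacZ2 replicate 1 or shRictor replicate 2 was left out, and fewer of all genes tested did as well. The calls of G6pc and Slc37a4 held in all 15 alternatives, although the rise was 1.88 and 1.33 without lacZ2 replicate 1 and 3.41 and 2.33 without lacZ2 replicate 2. Without lacZ2 replicate 1, Pck1 (1.67, adjusted p = 0.0545), Klf15 (1.18, adjusted p = 0.0655), Ppargc1a (1.27, adjusted p = 0.0747), Fbp1 (1.13, adjusted p = 0.138) and Foxo1 (1.04, adjusted p = 0.123) lost theirs. Without shRictor replicate 2, Pck1 (1.53, adjusted p = 0.0894), Klf15 (1.15, adjusted p = 0.0685), Fbp1 (1.39, adjusted p = 0.105) and Foxo1 (0.61, adjusted p = 0.261) did. Fbp1 lost its call also without shRictor replicate 1 (1.32, adjusted p = 0.125) and without both libraries that stood apart (1.13, adjusted p = 0.059). Foxo1 lost its call also without lacZ2 replicate 2 (0.88, adjusted p = 0.149) and with total count only (0.53, adjusted p = 0.251).

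**Figure D2:**
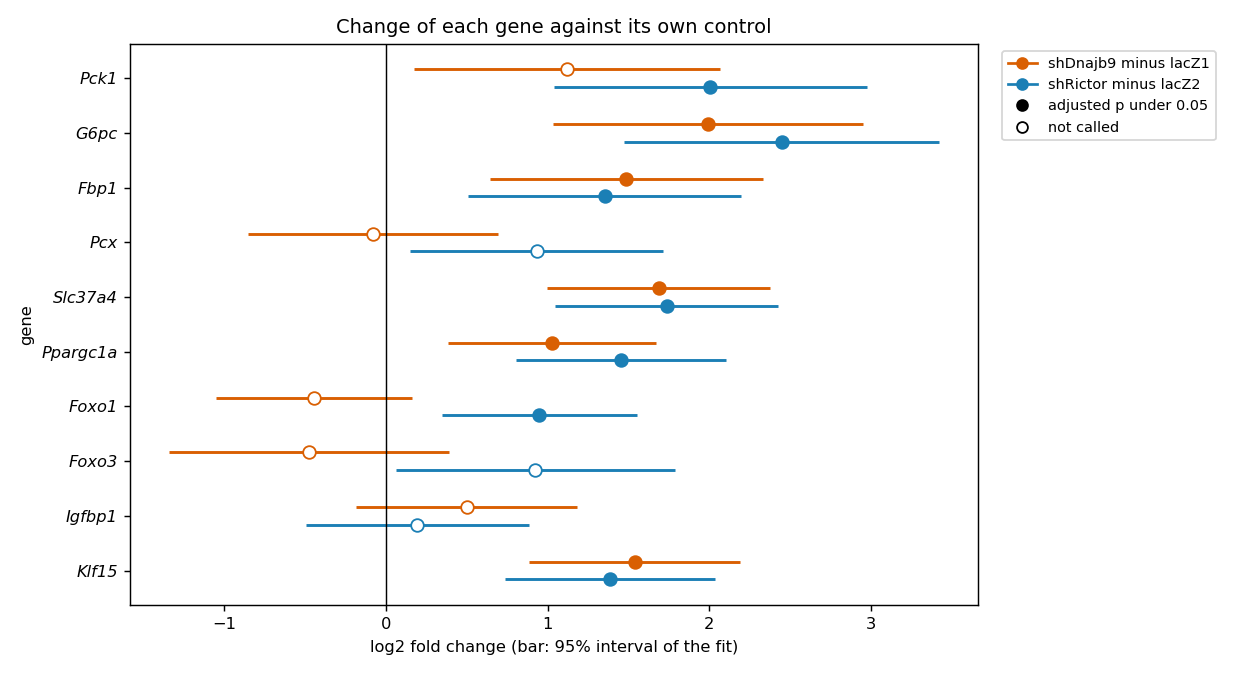
Log2 fold change of each gene against its own control, shDnajb9 minus lacZ1 in orange and shRictor minus lacZ2 in blue, with bars for the 95% interval of the fit to all 8 libraries. Filled points passed at an adjusted p under 0.05, which G6pc, Fbp1, Slc37a4, Ppargc1a and Klf15 did in both comparisons and Igfbp1, Pcx and Foxo3 in neither.

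G6pc, Slc37a4, Fbp1, Klf15 and Ppargc1a, 5 of the 10 genes, rose in both comparisons, where 4.16% of all genes did. The difference between the hairpins was tested as the shRictor effect minus the shDnajb9 effect. Of the 10 genes 0 passed with edgeR, where 0.00726% of all genes did, and 0 passed with DESeq2. At an unadjusted p under 0.05 there were 1495 of the 13767 genes and 2 of the 10, Foxo1 and Foxo3. For Foxo1 the difference was 1.40 on the log2 scale (95% interval 0.54 to 2.25, unadjusted p = 0.00363, adjusted p = 0.373). For Foxo3 it was 1.40 (95% interval 0.18 to 2.62, unadjusted p = 0.0279, adjusted p = 0.438). With no filter on low counts both passed (adjusted p = 0.0219 and 0.0232).
The difference of Pck1 was 0.89 (95% interval -0.44 to 2.21, adjusted p = 0.591) and that of Pcx 1.01 (95% interval -0.08 to 2.11, adjusted p = 0.486), so Pck1 passing under 1 hairpin only is not shown to be a difference between hairpins. For Slc37a4 the difference was 0.05 (95% interval -0.90 to 1.00), and for G6pc 0.46 (95% interval -0.85 to 1.77). These intervals are wide, so equal responses are not shown either.

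**Figure D3:**
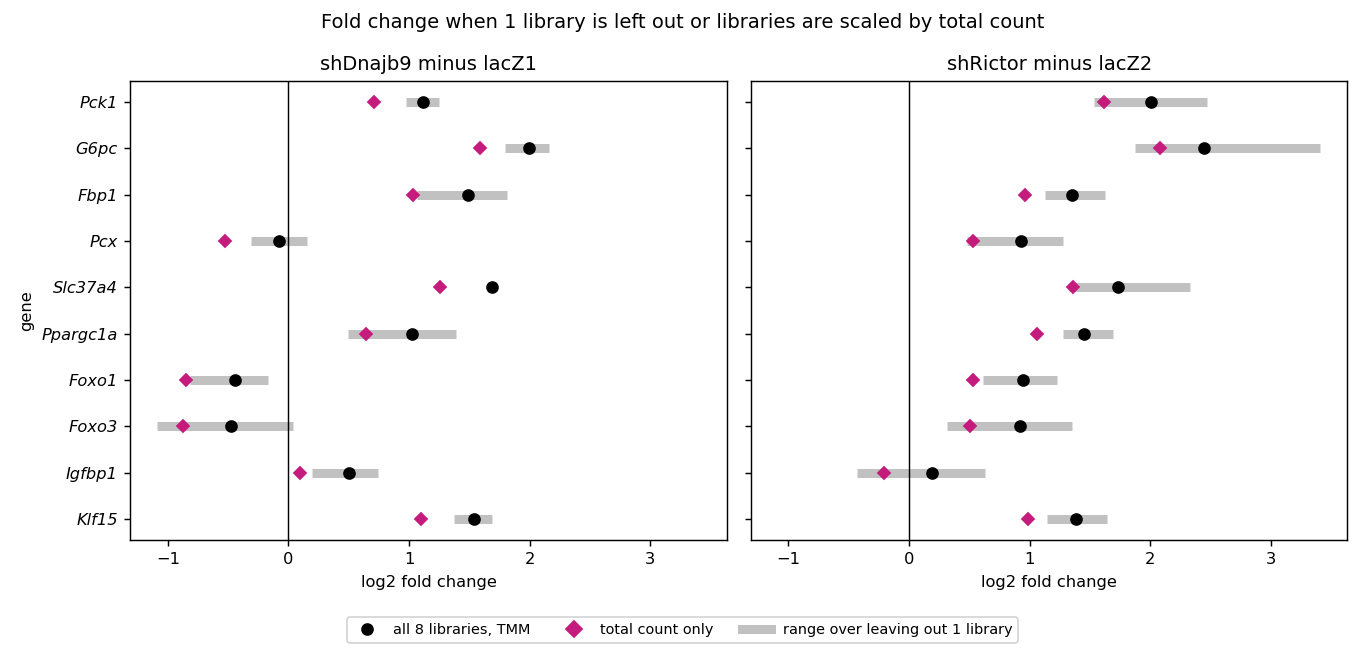
Log2 fold change of each gene with all 8 libraries (black points), its range when each of the 8 libraries is left out in turn (grey bars) and its value with total count only (pink diamonds), for shDnajb9 on the left and shRictor on the right. Slc37a4 has the narrowest bar in shDnajb9, from 1.65 to 1.70, and G6pc the widest in shRictor, from 1.88 to 3.41. Bars of Pcx and Foxo3 in shDnajb9 and of Igfbp1 in shRictor cross 0.

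The control groups differ in age and in the experiment they belong to, which cannot be told apart, and they are the baseline of the comparisons above. Of the 10 genes 0 passed in lacZ2 against lacZ1 with edgeR, where 0% of all genes did, and 0 with DESeq2. At an unadjusted p under 0.05 there were 169 of all genes and 1 of the 10, Pck1, at -1.05 (95% interval -1.99 to -0.10, adjusted p = 1.00). Both lacZ2 libraries were below both lacZ1 libraries for 5 of the 10, Pck1, Pcx, Ppargc1a, Foxo1 and Igfbp1, where 9.97% of all genes were and 11.7% were above. A higher or lower control enters the fold change of its hairpin: in shDnajb9 Pck1 reached 3466 ± 449 CPM and in shRictor 3105 ± 1237 CPM (SD, n = 2), whereas the controls were at 1598 ± 163 CPM with lacZ1 and 773 ± 290.5 CPM with lacZ2. The hairpin levels of Pck1 thus overlapped, and its controls did not. Likewise Igfbp1 was at 40.0 ± 2.04 CPM with lacZ1 and 25.1 ± 3.27 CPM with lacZ2 (SD, n = 2).

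Levels were compared between genes per length, as CPM per kilobase of exon in GENCODE M21, which may not be the annotation the authors counted with. In lacZ1 the order was Pck1 at 600.5 ± 61.1, Fbp1 at 413 ± 99.7, Pcx at 133 ± 31.0, G6pc at 91.6 ± 13.0, Klf15 at 47.6 ± 5.59, Slc37a4 at 33.3 ± 0.232 and Igfbp1 at 26.2 ± 1.34 CPM per kilobase (SD, n = 2). Foxo3 at 8.27 ± 3.59 and Foxo1 at 5.39 ± 0.72 overlapped, and Ppargc1a was lowest at 1.86 ± 0.232. In lacZ2 the libraries of Fbp1 and Pck1 overlapped, as did those of Pcx, G6pc and Klf15 with the next in order. Under the hairpins G6pc stood above Pcx with no overlap, at 364 ± 64.3 against 126 ± 11.0 in shDnajb9 and at 378 ± 47.5 against 189 ± 71.9 in shRictor. The G6pc to Slc37a4 ratio per length, enzyme to its transporter, lay between 1.95 and 3.01 in the 4 lacZ libraries, at 2.93 and 3.87 in shDnajb9 and at 4.71 and 3.56 in shRictor.

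The other genes of the pathway were read from 5 lists of 76 genes in all, of which 72 were tested. In shDnajb9 13 rose and 5 fell, and in shRictor 9 rose and 4 fell, against 11.6% and 12.6% of all genes that rose and fell in shDnajb9 and 7.31% and 10.9% in shRictor. The other 54 and 59 did not pass.

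Of 14 enzymes that are isozymes of the above or run in both directions, 13 were tested and Eno1 had too few counts. Whether the low counts of Eno1 reflect its expression or the assignment of reads was not tested. Of the 13, 2 rose and 2 fell in shDnajb9 and 1 rose and 2 fell in shRictor. Got1 and Mdh1, cytosolic enzymes of the malate-aspartate shuttle, rose by 1.10 (adjusted p = 0.0132) and 1.31 (adjusted p = 0.0178) in shDnajb9, and Got1 by 1.61 in shRictor (adjusted p = 0.00185). Got1 was at 115 and 149 CPM with lacZ1, 261 and 305 CPM with shDnajb9, 52.3 and 68.0 CPM with lacZ2 and 167 and 202 CPM with shRictor. Pck2, the mitochondrial counterpart of Pck1, fell, with log2 fold changes of -1.20 (adjusted p = 0.00982) and -1.32 (adjusted p = 0.00568). It went from 22.3 and 20.4 CPM to 11.3 and 7.65 CPM with shDnajb9, and from 26.2 and 18.0 CPM to 8.48 and 9.20 CPM with shRictor, the opposite direction to Pck1. Fbp2, the muscle isozyme of Fbp1, had 27 and 28 counts in lacZ1 and 1 and 1 in shDnajb9 (adjusted p = 0.00181). It had 50 and 56 counts in lacZ2 and 1 and 0 in shRictor (adjusted p = 0.000159). The control to hairpin ratio was 18.9 (95% counting interval 4.99 to 160.1) for shDnajb9 and 97.2 (95% counting interval 17.1 to 3874) for shRictor, by the exact Clopper-Pearson method, which covers counting error only. The median of the list was 0.27 in shDnajb9 and 0.05 in shRictor. The calls of Fbp2, and that of Got1 in shRictor, held in all 15 alternatives. Without lacZ1 replicate 1 those of Got1 (adjusted p = 0.182), Mdh1 (adjusted p = 0.221) and Pck2 (adjusted p = 0.0632) in shDnajb9 were lost, as were those of Mdh1 without shDnajb9 replicate 1 (adjusted p = 0.111) and of Pck2 without shDnajb9 replicate 2 (adjusted p = 0.0503), and in shRictor that of Pck2 without lacZ2 replicate 1 (adjusted p = 0.0647) or shRictor replicate 1 (adjusted p = 0.0509). In shDnajb9 the call of Got1 was lost also with total count only (0.69, adjusted p = 0.0607), and that of Mdh1 without both libraries that stood apart (adjusted p = 0.0562).

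Of 11 tested genes that supply substrate, 5 rose in shDnajb9 and 3 in shRictor, and 0 fell. Mpc1 and Mpc2, the mitochondrial pyruvate carrier, Gpt, alanine transaminase, and Sds, serine dehydratase, rose by 1.50, 1.15, 1.12 and 1.22 in shDnajb9 (adjusted p = 0.00788, 0.0222, 0.0215 and 0.025). In shRictor Aqp9, the glycerol channel, rose by 1.35 (adjusted p = 0.0156), Tat, tyrosine aminotransferase, by 2.09 (adjusted p = 0.0186) and Sds by 1.26 (adjusted p = 0.0261). Tat was at 638 and 887 CPM with lacZ1, 2063 and 2944 CPM with shDnajb9, 197 and 631 CPM with lacZ2 and 1225 and 2289 CPM with shRictor, and each hairpin library was above all controls. All of these calls were lost without 1 or more single libraries. Without lacZ1 replicate 1 the 4 named for shDnajb9 had adjusted p = 0.102 (Mpc1), 0.207 (Mpc2), 0.157 (Gpt) and 0.25 (Sds), and without shDnajb9 replicate 1 0.068, 0.213, 0.159 and 0.15, and that of Gpt was lost also without lacZ1 replicate 2 (0.106). Without lacZ2 replicate 1 those for shRictor had adjusted p = 0.113 (Aqp9), 0.0961 (Tat) and 0.0538 (Sds), and without shRictor replicate 2 0.0681, 0.131 and 0.205, and those of Aqp9 without shRictor replicate 1 (0.0611) and of Sds without lacZ2 replicate 2 (0.123) were lost too. With total count only, calls were lost for Mpc2 (0.69, adjusted p = 0.0982), Gpt (0.67, adjusted p = 0.0633) and Sds (0.78, adjusted p = 0.0826) in shDnajb9 and for Sds in shRictor (0.83, adjusted p = 0.078). Without both libraries that stood apart they were lost for Mpc1 (0.0774), Mpc2 (0.212), Gpt (0.103) and Sds (0.104) in shDnajb9 and for Aqp9 (0.0608) and Tat (0.0515) in shRictor. Tat rose by 1.71 in shDnajb9 too (adjusted p = 0.035), and that call was lost without any 1 of the 4 libraries compared (0.0725 to 0.252) and with total count only (1.32, adjusted p = 0.0676).

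Of 22 tested regulators 2 rose and 1 fell in shDnajb9, and 2 rose in shRictor. Gcgr, the glucagon receptor, went from 137 and 140 CPM to 309 and 259 CPM with shDnajb9, a rise of 1.03 (adjusted p = 0.0144). Cebpa, a hepatocyte transcription factor, rose by 1.35 (adjusted p = 0.0183) in shDnajb9 and 1.16 (adjusted p = 0.0393) in shRictor. Kat2a, an acetyltransferase that acetylates PGC-1alpha, fell by 0.94 in shDnajb9 (adjusted p = 0.0348), and Foxo4 rose by 0.89 in shRictor (adjusted p = 0.0469). Without lacZ1 replicate 1, lacZ1 replicate 2 or shDnajb9 replicate 1, the calls in shDnajb9 were lost for Gcgr (adjusted p = 0.144, 0.0851 and 0.0713), Cebpa (adjusted p = 0.166, 0.074 and 0.175) and Kat2a (adjusted p = 0.237, 0.0515 and 0.206). In shRictor those of Cebpa and Foxo4 were lost without any 1 of the 4 lacZ or 2 shRictor libraries (adjusted p up to 0.224 for Cebpa and 0.264 for Foxo4). With total count only, calls were lost for Gcgr in shDnajb9 (0.60, adjusted p = 0.0732) and for Cebpa (0.76, adjusted p = 0.0844) and Foxo4 (0.46, adjusted p = 0.335) in shRictor, and that of Foxo4 also with DESeq2 (adjusted p = 0.0605). Without both libraries that stood apart they were lost for Cebpa (adjusted p = 0.106) and Kat2a (adjusted p = 0.21) in shDnajb9.

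FoxO targets outside the 10 went both ways. Of 15, 3 rose and 1 fell in shDnajb9, and 2 rose and 1 fell in shRictor, with a median of 0.37 and 0.38. Irs2, the insulin receptor substrate, rose by 1.11 (adjusted p = 0.0318) and by 1.87 (adjusted p = 0.00319). It was at 22.5 and 13.5 CPM with lacZ1 and 26.2 and 51.3 CPM with shDnajb9, and at 11.4 and 8.04 CPM with lacZ2 and 32.1 and 38.6 CPM with shRictor. Pdk4, a kinase that shuts pyruvate dehydrogenase during fasting, fell, with log2 fold changes of -1.72 (adjusted p = 0.0176) and -2.94 (adjusted p = 0.00088). It went from 16.8 and 17.2 CPM to 4.40 and 5.71 CPM with shDnajb9, and from 52.7 and 17.1 CPM to 3.89 and 5.09 CPM with shRictor. Sod2 rose by 1.12 (adjusted p = 0.0261) and by 1.01 (adjusted p = 0.0481), and Apoc3 by 1.66 in shDnajb9 (adjusted p = 0.026). In shDnajb9 the call of Irs2 was lost without lacZ1 replicate 1 (adjusted p = 0.0501), lacZ1 replicate 2 (0.191) or shDnajb9 replicate 2 (0.251), and that of Pdk4 without any 1 of the 4 libraries compared (0.0599 to 0.167). Those of Apoc3 and Sod2 were lost without lacZ1 replicate 1 (0.244 and 0.201), lacZ1 replicate 2 (0.0584 and 0.0847) or shDnajb9 replicate 1 (0.273 and 0.171), and that of Sod2 in shRictor without any 1 of the lacZ1 or shRictor libraries or lacZ2 replicate 1 (0.0685 to 0.283). With total count only, calls were lost for Irs2 in shDnajb9 (0.72, adjusted p = 0.209) and for Sod2 in shDnajb9 (0.67, adjusted p = 0.0842) and shRictor (0.62, adjusted p = 0.118), the last also with the replicate number as a block (adjusted p = 0.0552). Without both libraries that stood apart they were lost for Apoc3 (0.16) and Sod2 (0.0924) in shDnajb9 and for Sod2 in shRictor (0.166). In shRictor the calls of Irs2 and Pdk4 held in all 15 alternatives, with Pdk4 at -1.92 without lacZ2 replicate 1.

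Of 11 tested genes that respond to glucocorticoids or cAMP, 1 rose and 1 fell under each hairpin. Tsc22d3, a glucocorticoid target, rose by 1.32 (adjusted p = 0.00642) in shDnajb9 and by 1.07 (adjusted p = 0.0205) in shRictor. Id1, an inhibitor of DNA binding by helix-loop-helix factors, fell, with log2 fold changes of -1.10 (adjusted p = 0.0411) and -2.21 (adjusted p = 0.00114). In shDnajb9 the call of Tsc22d3 was lost without lacZ1 replicate 1 (adjusted p = 0.122) and that of Id1 without lacZ1 replicate 2 (0.22) or either shDnajb9 library (0.0564 and 0.191), and in shRictor that of Tsc22d3 without lacZ2 replicate 1 (0.16) or shRictor replicate 2 (0.132). The call of Tsc22d3 in shRictor was lost also with total count only (0.67, adjusted p = 0.0999) and without both libraries that stood apart (adjusted p = 0.102). The glucocorticoid target Fkbp5 was at 0.00 in shDnajb9 (adjusted p = 0.995) and 0.22 in shRictor (adjusted p = 0.598).

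**Figure D4:**
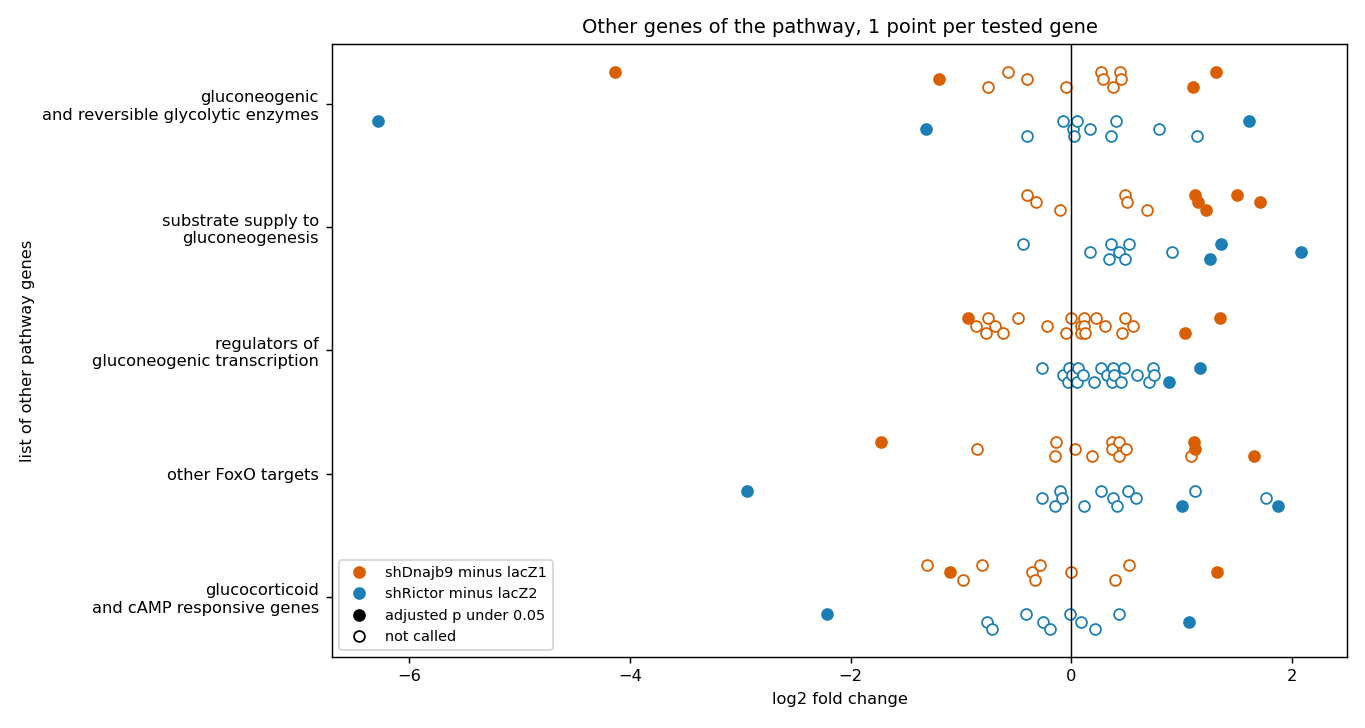
Log2 fold change of 72 other genes of the pathway in 5 lists, 1 point per gene, shDnajb9 minus lacZ1 in orange and shRictor minus lacZ2 in blue, filled where the adjusted p was under 0.05. Most points are open and lie on either side of 0. The leftmost point in each colour is Fbp2, whose fitted value rests on 2 counts or fewer in the hairpin group and depends on the prior count.

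Among markers of liver cell types, some passed under each hairpin. Over all genes 11.6% rose and 12.6% fell in shDnajb9, and 7.31% rose and 10.9% fell in shRictor. Of 9 tested hepatocyte markers, 3 (Apoa1, Serpina1c and Ttr) rose in shDnajb9 and 2 (Apoa1 and Serpina1c) in shRictor, and Alb was at -0.36 and 0.67 without passing. Their summed level was 52928 and 69629 CPM with lacZ1, 103152 and 78581 CPM with shDnajb9, 31476 and 58272 CPM with lacZ2 and 77366 and 85905 CPM with shRictor. Periportal markers, from the zone where gluconeogenesis is highest, rose in 3 and fell in 1 of 8 in shDnajb9 and rose in 4 of 8 in shRictor. Their sum went from 4839 and 5756 CPM to 7738 and 9430 CPM with shDnajb9, and from 2437 and 4359 CPM to 7380 and 9696 CPM with shRictor. Pericentral markers rose in 2 of 8 and 4 of 8, with sums from 1802 and 1942 CPM to 4588 and 5276 CPM and from 797 and 2513 CPM to 6852 and 6252 CPM. The periportal marker Ass1 was not tested, being listed at 0 in 6 of the 8 libraries and at 0.228 and 0.0978 CPM in replicate 2 of shDnajb9 and of shRictor. Whether these low counts of Ass1 reflect its expression or the assignment of reads was not tested. These 3 sums were lowest of all 8 libraries in lacZ2 replicate 1, as were the levels of Pck1, G6pc, Fbp1, Slc37a4, Ppargc1a and Klf15. In bulk tissue, fewer cells of a type and less RNA per cell cannot be told apart, and the part of these shifts in the results above was not tested.

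Of the markers of other cells, 2 of 6 tested in Kupffer cells and macrophages fell under each hairpin, with sums of 1051 and 1197 CPM with lacZ1, 883 and 1041 CPM with shDnajb9, 1034 and 1127 CPM with lacZ2 and 589 and 763 CPM with shRictor. Neutrophil markers fell in 4 of 5 in shDnajb9 and 1 of 5 in shRictor, with sums of 25.7 and 6.32 CPM with lacZ1, 1.05 and 1.03 CPM with shDnajb9, 14.4 and 4.06 CPM with lacZ2 and 1.77 and 4.79 CPM with shRictor. In both shDnajb9 libraries S100a8, Mpo and Retnlg were at 0, and Retnlg was at 0 in both shRictor libraries too. S100a8 and Retnlg were not tested and were at only 0.177 to 0.621 CPM with lacZ1. Elane, not tested either, went the other way, at 0.443 and 0.358 CPM with lacZ1 and 0.629 and 0.457 CPM with shDnajb9. T and NK cell markers fell in 1 of 8 and 2 of 8, stellate and fibroblast markers in 4 of 7 and 1 of 7, and cholangiocyte markers in 2 of 4 in shDnajb9. Endothelial markers rose in 1 of 7 in shDnajb9, and of 3 tested erythroid markers 1 rose and 1 fell under each. The listed erythroid markers Hba-a1 and Hbb-bs were not tested and were at 0 in every library. Whether these values of 0 reflect expression or the assignment of reads was not tested. Counts of 1 of 7 or 1 of 8 lie near the shares over all genes, 11.6% higher and 12.6% lower in shDnajb9 and 10.9% lower in shRictor. The part of these markers in the results was not tested.

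The genes most like 4 of the members across the 8 libraries, by Pearson's r of log2 CPM among 9439 genes with an average of at least 3, were as follows. Pck1 was most like Ppm1l (r = 0.986), Elovl6 (r = 0.986) and Tat (r = 0.98). G6pc was most like Tbccd1 (r = 0.996), Adhfe1 (r = 0.994) and Slc10a1 (r = 0.994), and Klf15 like Snx9 (r = 0.994), Thrsp (r = 0.991) and Slc23a1 (r = 0.99). Igfbp1 had no gene as close, the nearest being Pgm3 (r = 0.942), Dpcd (r = 0.931) and Sel1l3 (r = 0.923). The libraries fall into lacZ and hairpin clusters and share their scaling, so that r describes mainly the step between these clusters.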

How the data were processed

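The authors deposited 1 table of raw counts by gene symbol for each library. Per the submitters' processing notes they come from cutadapt and HTSeq on build mm10. The aligner, annotation and strand setting are not given in the sources used here. The 5 classes of unassigned reads were left out of library sizes, and the class without a unique alignment is given in the text. The 27 entries named by a calendar date stayed in the totals.

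The fit used edgeR 4.0.16 in R 4.3.3 (filterByExpr, minimum count 10, TMM, robust quasi-likelihood fit of 4 group means to 8 libraries, 4 residual degrees of freedom). DESeq2 1.42.0 was an alternative. The script was tested on simulated data. The common biological coefficient of variation was 0.209. Within groups the counts differed by more than counting error (chi-square per degree of freedom 18.2 to 51.98). An exact test of 2 against 2 cannot go below p = 0.333, so adjusted p-values come from the fit. Intervals of 95% use the SE and degrees of freedom of that fit.

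The 10 genes, the gene lists and the naming rule were chosen with earlier results of these data known. Named are the 10, the targets, up to 4 called genes with the smallest p per list and comparison, and the 3 genes most like Pck1, G6pc, Igfbp1 and Klf15, leaving out predicted and clone-based names. Fkbp5, Eno1 and the marker genes named were chosen after their values were seen. Gene models are GENCODE M21 (GRCm38), and for the 10 genes at most 0.0696% of 50-base stretches occur in another gene. Promoters are from RefSeq, GRCm38.p6.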

Additional observations from a re-analysis of the deposited data

Results flagged for a closer look

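Foxo1 was the 1 gene of the 10 whose hairpin libraries all lay on opposite sides of their controls: below lacZ1 under shDnajb9 (26.6 and 41.6 against 51.1 and 42.3 CPM) and above lacZ2 under shRictor (56.9 and 87.0 against 39.5 and 35.0 CPM). Under shDnajb9 the nearest libraries were close, at 41.6 against 42.3 CPM. Over all genes, 35.1% lay below lacZ1 in both shDnajb9 libraries and 28.8% above lacZ2 in both shRictor libraries. The share of genes that did both was not counted. For Foxo1 the difference between the shRictor and shDnajb9 effects was 1.40 on the log2 scale and did not pass (adjusted p = 0.373, edgeR). It ranged from 1.06 without shRictor replicate 2 to 1.77 without shDnajb9 replicate 2 when 1 library was left out.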

How the results depend on the processing

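Of the 10 genes, those called under shDnajb9 numbered 1 to 6 and under shRictor 2 to 7 when 1 library was left out. Over all genes these counts were 998 to 4142 and 1053 to 3009, and 1675 under shDnajb9 without shDnajb9 replicate 1 and lacZ2 replicate 1. In the difference between the hairpins the count over all genes was 395 with no filter, 43 with DESeq2, 3 with a replicate block, 0 to 19 with 1 library left out and 0 without both libraries that stand apart. With no filter 2 of the 10 were called there. In lacZ2 against lacZ1 it was 13 with no filter, 1 with DESeq2, 1 in the 4 libraries compared and 0 to 1 with 1 library left out. The cause of these shifts was not tested.

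Values of genes that did not pass changed sign when 1 library was left out. Under shDnajb9 Pcx ranged from -0.31 to 0.15 and Foxo3 from -1.09 to 0.0347, and under shRictor Igfbp1 from -0.43 to 0.63, with -0.21 by total count only. The difference between the hairpins ranged from -0.0974 to 1.43 for G6pc, -0.46 to 0.29 for Fbp1, -0.34 to 0.66 for Slc37a4, -0.93 to 0.13 for Igfbp1 and -0.39 to 0.12 for Klf15, while that of Ppargc1a stayed above 0 (0.0698 to 0.96). In lacZ2 against lacZ1 it was -1.37 to 0.16 for G6pc, -0.87 to 0.14 for Slc37a4 and -0.74 to 0.15 for Foxo3. Without both libraries that stand apart, the difference was -0.28 for G6pc, 0.07 for Fbp1, -0.34 for Slc37a4 and -0.11 for Ppargc1a, and lacZ2 against lacZ1 was 0.16 for G6pc and 0.14 for Slc37a4.

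With the replicate number as a block, 3289, 2470, 3 and 0 genes were called in the 4 comparisons, and 5, 7, 0 and 0 of the 10. Of the named genes it ended only the call of Sod2 under shRictor (adjusted p = 0.0552). Between a hairpin and its control, same-numbered libraries did not deviate together (correlation -0.3 for lacZ1 with shDnajb9 and -0.032 for lacZ2 with shRictor). The numbers are therefore not taken to pair a hairpin library with a control. Between the other groups the correlation was 0.203 for lacZ1 with lacZ2 and 0.322 for shDnajb9 with shRictor. It was -0.328 for lacZ1 with shRictor and 0.017 for shDnajb9 with lacZ2. With 2 libraries a group, single libraries decide many calls. Of the 10 genes Ppargc1a had the fewest counts, 60 to 275 counts a library.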

Other observations

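Ratios between genes within a library do not depend on how libraries are scaled. Per exon length, Pck1 stood at 2.42 to 5.79 times Pcx in the 4 lacZ libraries and at 6.06 to 12.1 times Pcx in the 4 hairpin libraries, without overlap. Igfbp1 stood at 0.0392 to 0.0701 of Pck1 in the lacZ libraries and at 0.0146 to 0.0308 in the hairpin libraries, again without overlap. The Pck1 to G6pc ratio ran from 2.04 to 6.76, with 6.38 as the lower value of lacZ1 and 3.71 as the higher of shDnajb9, while lacZ2 (3.59 and 5.95) and shRictor (2.04 and 4.35) overlapped. Foxo1 to Foxo3 lay between 0.546 and 0.852 in all 8 libraries with no separation by group. These ratios were chosen after the values were seen and carry no test.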
